A study of Saccharomyces cerevisiae with 8 samples.

Results

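Budding yeast, Saccharomyces cerevisiae, makes most of its small nucleolar RNAs (snoRNAs) and spliceosomal small nuclear RNAs (snRNAs) with RNA polymerase II (Pol II). The array regions beside these genes are described here for 4 proteins that belong to the RNA polymerase III (Pol III) machinery. The members are the 38 of 6399 array features named for an SNR gene, without those of SNR6 and SNR52, which Pol III transcribes. All 38 names matched a snoRNA or snRNA gene in the RefSeq gene table of assembly R64, which lists 82 such genes. By their RNA, 28 regions belong to C/D box snoRNAs, 8 to H/ACA box snoRNAs and 2 to spliceosomal RNAs. The choice used names alone and no measured value.

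Chromatin immunoprecipitation followed by hybridisation to an array of intergenic regions gave the values. The precipitated proteins were Bdp1 and Brf1, subunits of TFIIIB, the factor that recruits Pol III; C160, the largest subunit of the polymerase; and Tau95, which belongs to TFIIIC, the complex on the promoter elements inside tRNA genes. Bdp1, Brf1 and Tau95 carried 13 myc epitopes and C160 carried 3 HA epitopes. Cells grew in the rich medium YPD, and each protein was measured once rapamycin (0.2 ng per µl) had been present for 30 min and before it was added (0 min). Rapamycin inhibits the TOR kinase complex 1 and lowers Pol III transcription. Per the labels, every slide held precipitated DNA of the wild type in Cy5 and of a strain without MAF1, which encodes a general Pol III repressor, in Cy3. There is 1 deposited column, called an array here, for each protein and time, so 8 arrays in all with 1 per group. No difference below has a replicate check, and no p-value was computed.

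SnoRNAs guide the chemical modification of ribosomal RNA. C/D box RNAs mostly direct methylation of the ribose, and H/ACA box RNAs direct the conversion of uridine to pseudouridine, while a few take part in cutting the ribosomal precursor. The spliceosomal RNAs U4 and U5 belong to the tri-snRNP that joins the spliceosome, together with U6, whose gene SNR6 is a classical Pol III gene. Yeast snoRNA genes stand alone, in clusters that are transcribed together and then cut apart, or in introns of protein genes.

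The deposited log2 values were taken as relative brightness; per the labels' design text their zero is set by loci free of the machinery. Which of the strains gave them, and what they were divided by, is unknown, so nothing is said of the MAF1 deletion. Features named for Pol III genes, 257 in all, had medians between 2.01 and 3.27 on the 8 arrays, and all features together had medians between -0.08 and 0.17. Values were missing for 117 to 639 features per array, most of all on the Brf1 array at 30 min. A feature lies on the higher-coordinate side of the gene it is named for. On the Bdp1 array at 0 min, the median was 2.95 for regions of open reading frames whose next gene on the higher side is a tRNA gene (n = 188) and 0.04 where it is on the lower side (n = 181).

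The snoRNA and snRNA regions were not bright as a class for any of the proteins. Their median for Bdp1 was -0.24 at 30 min (n = 37) and -0.04 at 0 min (n = 37), where Pol III features had 2.95 at 30 min and 3.27 at 0 min. For Brf1 the members' median was -0.49 at 30 min (n = 34) and -0.08 at 0 min (n = 38), where Pol III features had 2.32 and 3.06. For C160 it was -0.25 at 30 min (n = 37) and -0.24 at 0 min (n = 38), beside 2.45 and 2.95 at Pol III features. For Tau95 it was 0.03 at 30 min and -0.05 at 0 min (n = 38 each), beside 2.32 and 2.01. On every array the members' median lay below that of all features.

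Single regions went past the class. A value of 1 or more, which is 2-fold above the zero, was seen for Bdp1 at 6 of 37 members at 30 min and 7 of 37 at 0 min, against 29.5% and 28.8% of all features. For Brf1 it was 4 of 34 members at 30 min and 5 of 38 at 0 min, against 27.8% and 22.7% of all features. For C160 it was 5 of 37 at 30 min and 6 of 38 at 0 min, against 25.4% and 22.9%. For Tau95 it was 8 of 38 at each time, against 27.9% at 30 min and 25.9% at 0 min, and the count at 30 min was 4 after centring or quantile normalization of the arrays. The members thus reached this level at a lower share than all features on each of the 8 arrays. At the other end, a value of -1 or less was seen for Bdp1 at 11 of 37 members (29.7%) at each time, against 18.9% of all features at each time. For Brf1 it was 10 of 34 (29.4%) at 30 min and 6 of 38 (15.8%) at 0 min, against 16.3% and 12.4% of all features. C160 had 10 of 37 (27.0%) at 30 min and 5 of 38 (13.2%) at 0 min, against 13.5% and 14.5%. Tau95 had 8 of 38 (21.1%) at 30 min and 10 of 38 (26.3%) at 0 min, against 12.3% and 20.0%.

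**Figure D1:**
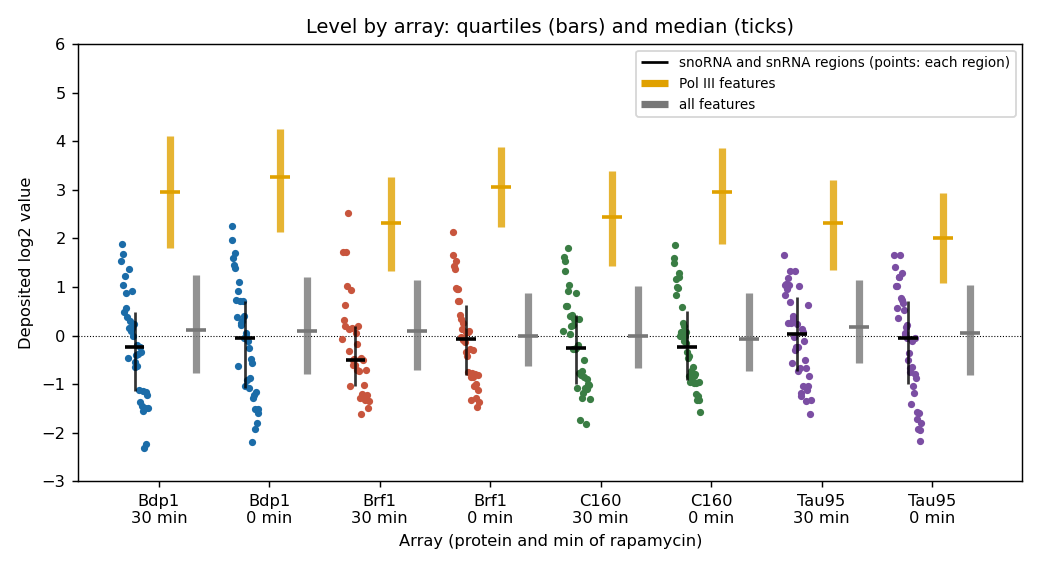
Deposited log2 value (vertical axis) of the snoRNA and snRNA regions on the 8 arrays (horizontal axis: protein and min of rapamycin), each region as a point, with thin bars for the quartiles and a tick for the median. Orange bars and ticks give the quartiles and median of Pol III features and grey ones those of all features; the members' medians lie between -0.49 and 0.03 and those of Pol III features between 2.01 and 3.27.

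Between arrays the members kept much of their order. Across the members, 28 pairs of arrays had Pearson's r between 0.53 and 0.93, with a median of 0.80 over pairs, and across all features between 0.81 and 0.96. The arrays share their probes, so these values are a description only. The lowest was between Bdp1 at 0 min and Brf1 at 30 min (n = 33), and the highest between Brf1 and C160, both at 0 min (n = 38). There were 10 members above 0 and 13 below 0 on every array that gave them a value. The share of all features that kept 1 sign is not given here, so these counts do not set the members apart. A value on all 8 arrays was given for 32 members. The other 6 had gaps, SNR46 on the Bdp1 and C160 arrays at 30 min, SNR55 on the Bdp1 array at 0 min, and the regions of SNR128, SNR13, SNR65 and SNR69 on the Brf1 array at 30 min.

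**Figure D2:**
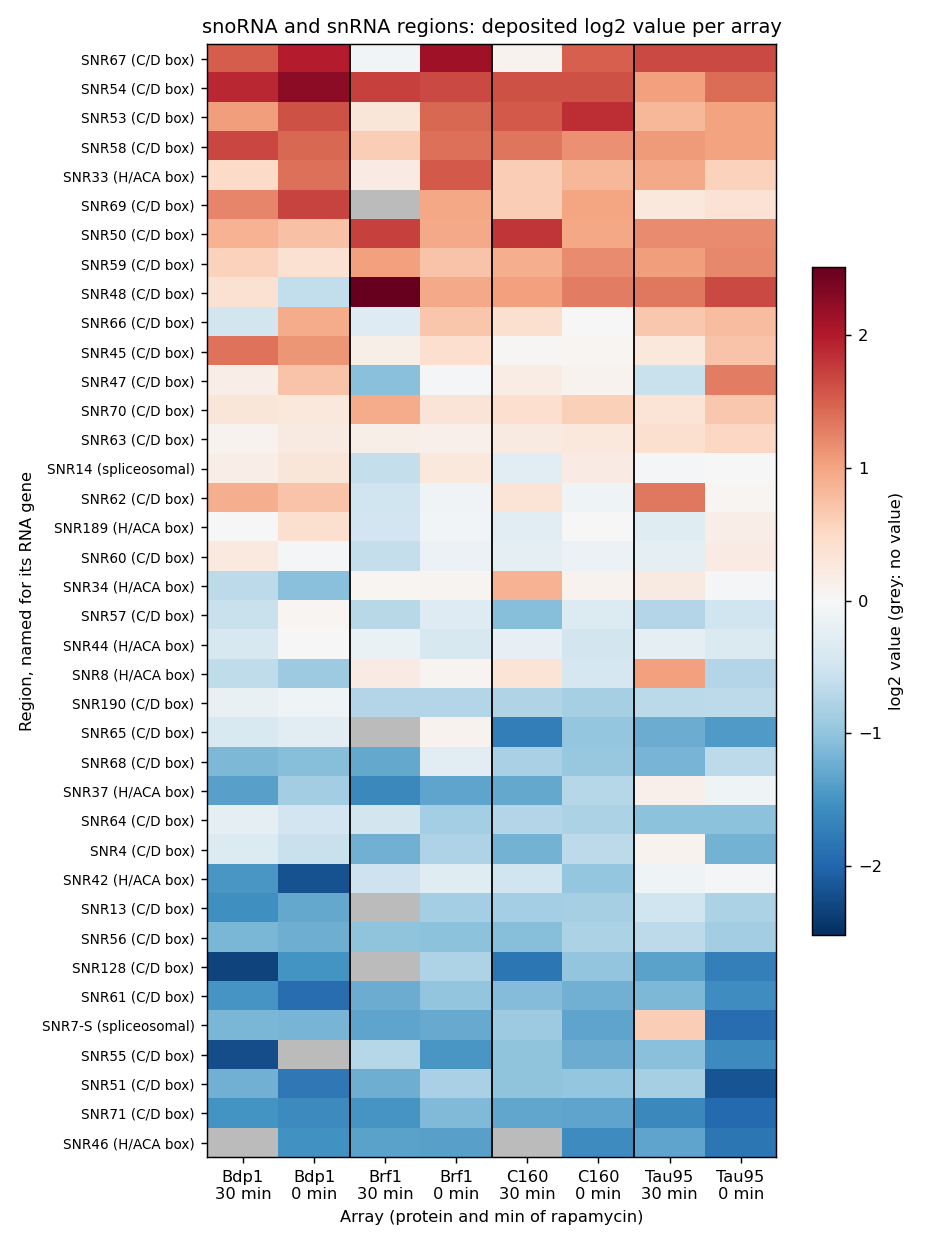
Deposited log2 value (colour; red above 0, blue below 0, grey for no value) of each of the 38 regions (rows, named for the RNA gene and its class) on the 8 arrays (columns: protein and min of rapamycin), ordered by the mean at 0 min. The top rows, led by SNR67 and SNR54, are red on nearly all arrays, and the bottom rows are blue on nearly all.

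At 0 min the mean over the 4 proteins was 1 or more for 6 of 38 regions, where 24.2% of all features reached that mean. These were the regions of SNR67, SNR54, SNR53, SNR58, SNR33 and SNR69. SNR54, a methylation guide encoded in an intron of IMD4, the gene of an IMP dehydrogenase, was the only member at 1 or more on all 8 arrays. How many of all features were so is not given here. Its region had 1.89 at 30 min and 2.26 at 0 min for Bdp1, 1.73 and 1.65 for Brf1, 1.61 and 1.59 for C160, and 1.04 and 1.40 for Tau95. SNR58, a methylation guide with its own transcription unit, had 1.68 at 30 min and 1.44 at 0 min for Bdp1, 0.62 and 1.38 for Brf1, 1.34 and 1.15 for C160, and 1.07 and 1.02 for Tau95. Both regions changed by less than 2-fold for each protein. SNR69, another methylation guide, was brightest for Bdp1, with 1.23 at 30 min and 1.69 at 0 min, while Tau95 had 0.26 at 30 min and 0.36 at 0 min.

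The dimmest regions were low for most proteins. A mean at 0 min of -1 or less was found for 7 of 38 members, where 16.6% of all features had such a mean. These were SNR46, SNR71, SNR51, SNR55, SNR7-S, SNR61 and SNR128. SNR71, a methylation guide, had -1.498 at 30 min and -1.60 at 0 min for Bdp1, -1.49 and -1.11 for Brf1, -1.30 and -1.33 for C160, and -1.62 and -1.95 for Tau95. SNR128 encodes U14, a C/D box RNA needed for the processing of 18S ribosomal RNA, and its region reached -2.32 for Bdp1 at 30 min, the lowest member value of any array. SNR42, a pseudouridylation guide, was lowest for Bdp1, with -1.46 at 30 min and -2.19 at 0 min, against -0.10 at 30 min and -0.05 at 0 min for Tau95.

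Between these ends lay regions that were bright or dim for some proteins and not for others. SNR50, a methylation guide, had 1.73 at 30 min and 0.96 at 0 min for Brf1, and 1.81 and 0.98 for C160, while Tau95 had 1.19 and 1.20 and Bdp1 0.87 and 0.73. For C160 at 30 min it was the brightest member. SNR45, which guides acetylation of 18S ribosomal RNA, was at 1 or more for Bdp1 alone, with 1.37 at 30 min and 1.11 at 0 min, against 0.04 at 30 min and 0.06 at 0 min for C160. SNR37, a pseudouridylation guide, was dim for Bdp1, Brf1 and C160, with -1.37, -1.62 and -1.29 at 30 min and -0.88, -1.33 and -0.72 at 0 min, and near zero for Tau95, with 0.13 at 30 min and -0.11 at 0 min. SNR34, also a pseudouridylation guide, had 0.87 at 30 min and 0.08 at 0 min for C160, and -0.65 and -1.05 for Bdp1.

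Some other members varied little. SNR63, a methylation guide, had the narrowest range, 0.44, between 0.09 and 0.53, and SNR44 had 0.45 and SNR46, on the 6 arrays with a value, 0.48. SNR56, a methylation guide, lay between -1.22 and -0.67 on all arrays. SNR65 and SNR13, methylation guides with no Brf1 value at 30 min, varied more, with ranges of 1.82 and 1.05. They differed for C160: SNR65 had -1.73 at 30 min and -0.97 at 0 min, and SNR13 had -0.86 and -0.83.

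The regions of the 2 spliceosomal RNAs among the members stood far from that of U6. The region of SNR14, the U4 gene, had 0.16 at 30 min and 0.30 at 0 min for Bdp1, -0.61 and 0.26 for Brf1, -0.28 and 0.20 for C160, and -0.03 and 0.01 for Tau95. The region of SNR7-S, which is the short form of U5, had -1.16 at each time for Bdp1, -1.32 at 30 min and -1.28 at 0 min for Brf1, and -0.90 and -1.33 for C160. The SNR6 feature had 5.04 at 30 min and 5.17 at 0 min for Bdp1 and 3.77 and 3.23 for Tau95, so U4 and U5 lay more than 3 log2 units below U6 on each of these arrays. The feature of SNR52, the other Pol III gene left out, was dim. With no Bdp1 value, its mean at 0 min was -1.22, beside -1.42 for SNR7-S and 0.19 for SNR14.

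By structural class, the median of the mean level at 0 min was 0.05 for the 28 C/D box regions, -0.41 for the 8 H/ACA box regions and -0.62 for the 2 spliceosomal regions. At 30 min the C/D box and the H/ACA box regions had the same median of -0.26, so the order seen at 0 min was not there at 30 min. All features had a median of -0.01 at 0 min. By arrangement, the 26 regions of genes with their own transcription unit had a median of -0.24 at 30 min and -0.13 at 0 min. The 9 regions of clustered genes had -0.77 at 30 min and -0.59 at 0 min. The 3 intronic genes differed among themselves at 0 min, with means of 1.73 for SNR54, 0.88 for SNR59 and -0.31 for SNR44. SNR59 is a methylation guide within RPL7B and SNR44 a pseudouridylation guide within RPS22B, and both hosts encode ribosomal proteins.

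Spacers within clusters were mostly dim. In the cluster of SNR57, SNR55 and SNR61, all methylation guides, the spacers named for SNR55 and SNR61 averaged -1.44 and -1.42 at 0 min. The spacer of U14 and SNR190 averaged -1.25, and the spacer of SNR51 and SNR70 -1.44. The spacer of SNR70 and SNR41 averaged 0.47. The spacer of SNR67 and SNR53, at 1.81, was the brightest of the 6 spacers and of all 38 members.

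Only 4 regions have a tRNA gene as a next gene. SNR33, a pseudouridylation guide whose region ends at the tRNA gene SUF16, averaged 1.08 at 0 min, and SNR53, a methylation guide whose region ends at tRNA gene YNCE0004C, averaged 1.48. SNR46 and SNR61 have a tRNA gene on the other side, outside their regions, and averaged -1.57 and -1.42. The median of the 34 regions with no Pol III gene next was -0.26 at 0 min. The part of the adjoining tRNA genes in the values of SNR33 and SNR53 was not tested.

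For 28 genes the regions on both sides were on the array. The region on the 5' side had a median of -0.06 at 0 min, and the region on the 3' side had -0.51. For a gene with its own transcription unit the 5' side is the side of the Pol II promoter. The 5' side of SNR53, SNR70, SNR55 and SNR128 is instead a spacer within a cluster. Of these spacers, 3 are also the 3' side of another of the 28 genes. The 5' side was brighter at 18 genes and the 3' side at 10, and the median of the difference, 5' minus 3', was 0.37. Over the 21 genes with their own transcription unit it was 0.28, with the 5' side brighter at 13 and the 3' side at 8. Over all 28, a difference of 1 or more in size favoured each side at 6 genes. SNR58 had 1.25 on the 5' side and -0.71 on the 3' side, and SNR64, a methylation guide, had 0.87 and -0.79. SNR189, a pseudouridylation guide, had 0.13 on the 5' side and 3.35 on the 3' side, which is the region shared with RPS14A, the gene of a small-subunit ribosomal protein. SNR48, a methylation guide, had -1.29 on the 5' side and 0.82 on the 3' side. SNR37 had -0.76 on the 5' side and 1.19 on the 3' side, which is shared with PAM16, and there C160 had 0.06 at 30 min and 1.21 at 0 min. By array the median difference ran between -0.11 for Brf1 at 30 min (n = 22) and 0.51 for Tau95 at 0 min (n = 28), so the genes gave no side that was brighter on every array.

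**Figure D3:**
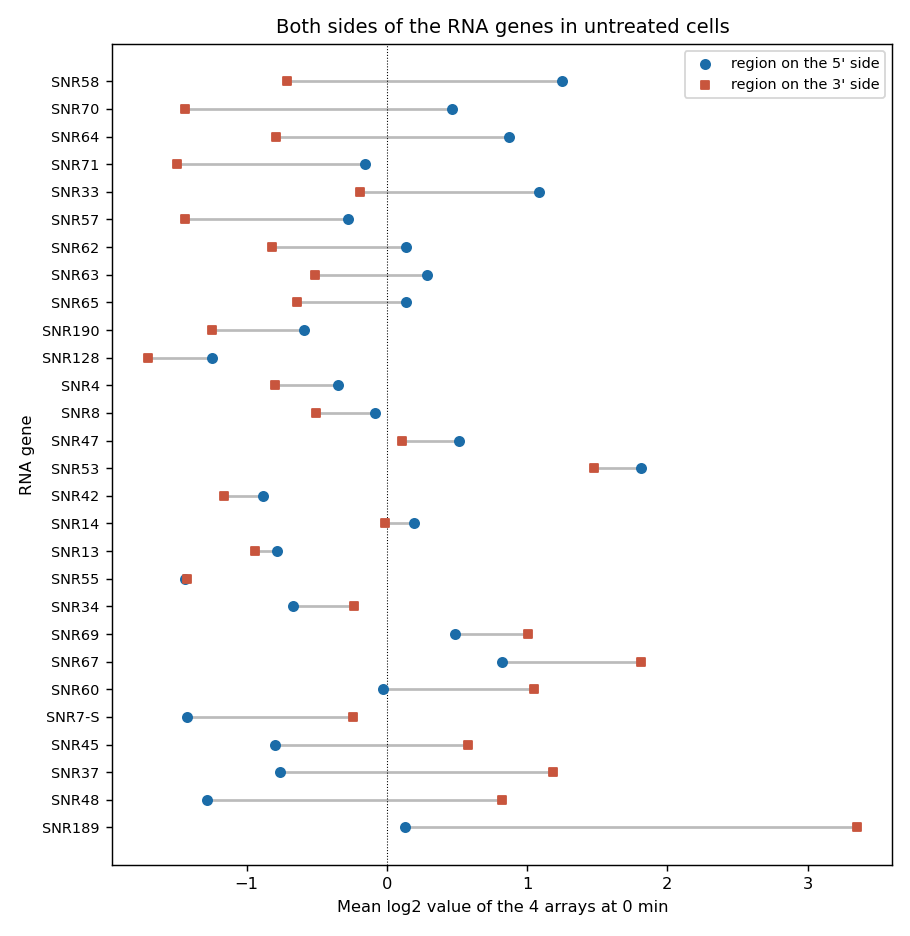
Mean log2 value of the 4 arrays at 0 min (horizontal axis) of the region on the 5' side (circle) and on the 3' side (square) of 28 snoRNA and snRNA genes (rows, from the largest 5' excess at the top), joined by a line. The 5' side was brighter at 18 genes, and the 3' side of SNR189, shared with RPS14A, stands at 3.35.

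At 0 min Pol III features were brighter for Bdp1, Brf1 and C160 than for Tau95, and the members were less so. The difference C160 minus Tau95 had a median of 0.10 over the members, against 0.83 over Pol III features and 0.05 over all features. Brf1 minus Tau95 had 0.15 over the members, 0.96 over Pol III features and 0.10 over all features. Bdp1 minus Tau95 had 0.29, 1.21 and 0.10 in the same order. At 30 min the members' medians were below 0, at -0.31 for Bdp1 minus Tau95, -0.22 for Brf1 minus Tau95 and -0.17 for C160 minus Tau95. Over Pol III features these differences were 0.51, -0.03 and 0.14 at 30 min, and over all features -0.10, -0.14 and -0.04. The arrays are scaled separately, so a difference between proteins is one of relative brightness and not of the number of molecules.

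Rapamycin was next set against 0 min, as a difference of log2 values, 30 min minus 0 min. For Bdp1 the members' median change was -0.02 (n = 36), and that of all features 0.04 and of Pol III features -0.20. For C160 the members had -0.03 (n = 37), all features 0.09 and Pol III features -0.32. For Tau95 the members had 0.00 (n = 38), all features 0.19 and Pol III features 0.27. Of the 4 proteins Brf1 had the largest median change over the members, at -0.27 (n = 34), beside -0.03 over all features and -0.70 over Pol III features. After quantile normalization of the arrays it was -0.12 for Brf1 and -0.18 for Tau95, so this ranking depends on the scaling. Missing values were most frequent on the Brf1 array at 30 min, and members missing there do not enter the Brf1 change. Over members with all 8 values alone, the Brf1 median change was -0.28. The part of the missing values in this shift was not tested.

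At least 1 protein changed by 2-fold or more at 12 members, and no protein did at the other 26. All 12 were among the 32 members with 4 changes, of which they are 37.5%, against 26.1% of all features with 4 changes. For Brf1, 6 of 34 members (17.6%) were 2-fold lower and 1 (2.94%) was 2-fold higher, where 7.10% of all features were lower and 5.28% higher. For Tau95, 1 of 38 members (2.63%) was lower and 5 (13.2%) were higher, where 1.81% of all features were lower and 6.87% higher. At 1.5-fold, 5 of 38 members, or 13.2%, were higher for Tau95, below the 22.6% of all features. After quantile normalization 3 were 2-fold higher, beside 4.72% of all features. For Bdp1, 1 of 36 members was lower and 1 higher (2.78% each), beside 2.72% and 0.777% of all features. For C160, 1 of 37 members (2.70%) was lower and 0 were higher, beside 2.17% and 3.36% of all features. With these numbers of members, a share moves by several percent with a single region.

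**Figure D4:**
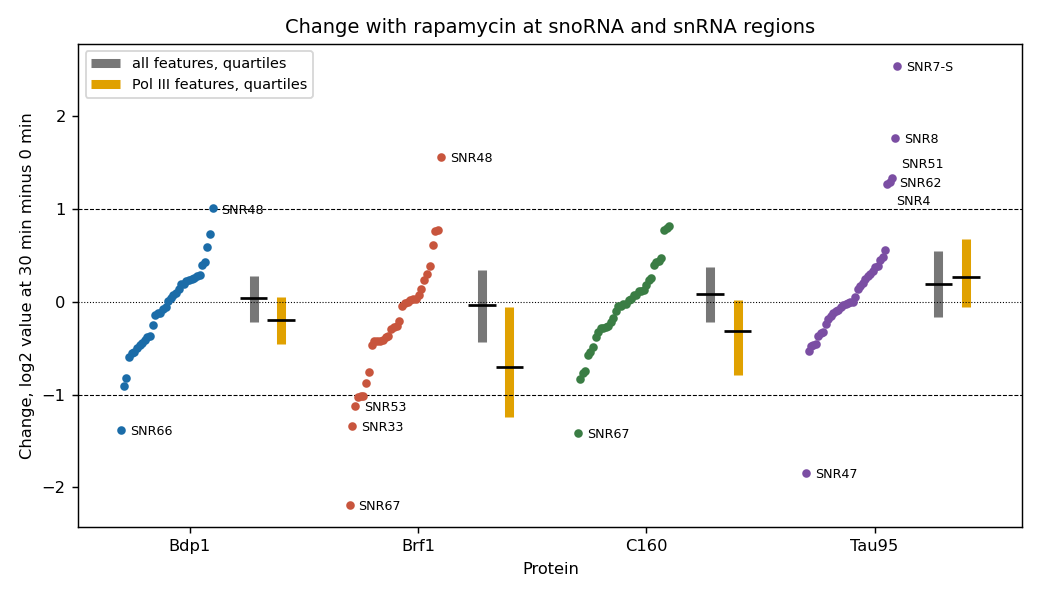
Change in log2 value, 30 min minus 0 min (vertical axis), of each snoRNA and snRNA region for the 4 proteins (horizontal axis), in order of size within a protein. Grey and orange bars with ticks give the quartiles and medians of all features and of Pol III features, and dashed lines mark 2-fold; SNR67 stands lowest for Brf1 and C160, SNR47 lowest for Tau95 and SNR7-S highest for Tau95.

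The SNR67 region had the lowest change of any member for Brf1 and for C160. SNR67 and SNR53 are methylation guides of 1 cluster on chromosome V, and the region lies between them. It had -0.07 at 30 min and 2.12 at 0 min for Brf1, a change of -2.19, and 33 of 5759 features, itself included, had a change as low. For C160 it had 0.09 at 30 min and 1.497 at 0 min, a change of -1.41, which 46 of 6258 features reached. Bdp1 had 1.53 at 30 min and 1.97 at 0 min, and Tau95 had 1.65 and 1.66. Brf1 and C160 were thus near zero at 30 min while Bdp1 and Tau95 were not. Of the 32 members with 4 changes it was the only one 2-fold lower for both Brf1 and C160, which 0.929% of all features and 20 of 246 Pol III features were.

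The flanking regions of this cluster differed from the spacer in their Brf1 and C160 changes. On the RML2 side, before SNR67, the region had 0.03 at 30 min and 0.17 at 0 min for Brf1, and 0.16 and 0.82 for C160. It had 1.48 at 30 min and 0.85 at 0 min for Bdp1, and 1.33 and 1.45 for Tau95. At 30 min this flank thus resembled the spacer, with Brf1 and C160 near zero while Bdp1 and Tau95 were not. RML2 encodes a mitochondrial ribosomal protein. On the other side, between SNR53 and the tRNA gene, the region had 0.31 at 30 min and 1.44 at 0 min for Brf1, a change of -1.12. There C160 had 1.53 and 1.86, Bdp1 1.05 and 1.60, and Tau95 0.83 and 1.02. At 0 min Brf1 was therefore highest in the spacer, and C160 was highest next to the tRNA gene.

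**Figure D5:**
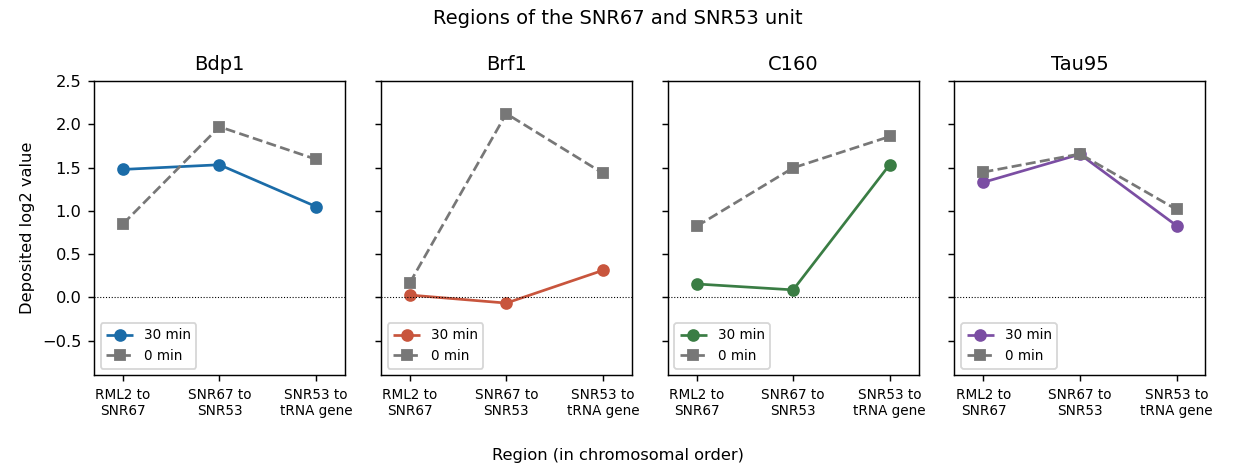
Deposited log2 value (vertical axis) of the 3 regions around SNR67 and SNR53 (horizontal axis, in chromosomal order, evenly spaced), at 30 min (solid line, circles) and 0 min (dashed line, squares), with 1 panel for each protein. In the spacer of SNR67 and SNR53, Brf1 stands at -0.07 at 30 min and 2.12 at 0 min, and Tau95 at 1.65 and 1.66.

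Besides the regions of SNR67 and SNR53, those of SNR33, SNR66, SNR68 and SNR47 were 2-fold lower for Brf1. SNR33 had 0.20 at 30 min and 1.54 at 0 min, a change of -1.34. SNR66, a methylation guide, had -0.32 at 30 min and 0.70 at 0 min, also a change of -1.02. SNR68 and SNR47, both methylation guides, had -1.29 and -1.05 at 30 min, against -0.28 and -0.03 at 0 min, and each changed by -1.02. Of the 5 members at 1 or more for Brf1 at 0 min, 3 were 2-fold lower at 30 min, while 16.5% of the 1412 features that started at this level were. These 3 are SNR33 and SNR53, whose regions end at a tRNA gene, and SNR67, whose region adjoins SNR53. Of Pol III features, 32.7% were 2-fold lower for Brf1. The part of the tRNA genes in these changes was not tested. SNR66 also gave the only 2-fold lower value for Bdp1, with -0.46 at 30 min and 0.92 at 0 min, a change of -1.38 that 53 of 5921 features reached.

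SNR48 went the other way for Brf1 and, just past the 2-fold limit, for Bdp1. Its region, on the 3' side of the gene, had 2.52 at 30 min and 0.95 at 0 min for Brf1. This change of 1.57 was reached by 54 of 5759 features. For Bdp1 it had 0.39 at 30 min and -0.63 at 0 min, a change of 1.01 that 44 of 5921 features reached. The Bdp1 change was under 2-fold after centring (0.99) and quantile normalization (0.82). C160 had 1.03 at 30 min and 1.29 at 0 min, and Tau95 had 1.32 and 1.65. Its Brf1 value at 30 min was the highest of any member on any array, and its range over the 8 arrays, 3.14, was the widest. The region on the 5' side of SNR48 changed by 0.93 for Bdp1 and by -0.20 for Brf1.

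For Tau95 the largest changes were at SNR7-S and SNR47. The SNR7-S region had 0.62 at 30 min and -1.93 at 0 min, a change of 2.54, which 5 of 6241 features reached, itself included. Its changes for Bdp1, Brf1 and C160 were 0.01, -0.04 and 0.43. The region on the 3' side of SNR7-S, shared with TOS2, had 0.53 at 30 min and -0.71 at 0 min for Tau95, a change of 1.24, so both sides were higher. SNR47 had -0.56 at 30 min and 1.29 at 0 min, a change of -1.85 that 6 of 6241 features reached. The region on the 3' side of SNR47 had -0.565 at 30 min and 0.69 at 0 min for Tau95. That is a change of -1.25, so both sides were lower.

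The other 4 members that were 2-fold higher for Tau95 were those of SNR8, SNR51, SNR62 and SNR4. SNR8, a pseudouridylation guide, had 1.02 at 30 min and -0.74 at 0 min. SNR51, a methylation guide, had -0.84 at 30 min and -2.17 at 0 min, and so stayed dim. SNR62, a methylation guide, had 1.34 at 30 min and 0.04 at 0 min. SNR4, which guides acetylation of 18S ribosomal RNA, had 0.08 at 30 min and -1.19 at 0 min. On the other side of the gene, the region changed for Tau95 by 1.31 at SNR8, -0.33 at SNR62 and -0.39 at SNR4. Of the 10 members at -1 or less for Tau95 at 0 min, 3 were 2-fold higher at 30 min, while 11.8% of the 1243 features that started there were. None of the 5 regions that were higher for Tau95 changed by 2-fold for another protein. Such changes were few over all features too, between 0.777% and 7.10% for each of the other proteins and directions.

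Changes of 1 sign for every protein were few. SNR14, SNR189, SNR53, SNR57 and SNR67 were lower for all 4 proteins, which makes 15.6% of the 32 members with 4 changes against 6.96% of all features. SNR64 and SNR8 were higher for all 4, against 15.1% of all features. Most of these changes were under 2-fold in size, and SNR14 changed by -0.87 for Brf1, -0.49 for C160, -0.14 for Bdp1 and -0.03 for Tau95.

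The regions of genes for proteins of the same particles were set beside them. Of 31 genes for core, assembly and processing proteins of snoRNPs and snRNPs, 26 had a feature, and PRP3 had 2. Their median change was 0.25 for C160 and 0.24 for Tau95 (n = 27 each), and -0.01 for Bdp1 and -0.04 for Brf1 (n = 26 each). All features had 0.09 for C160, 0.19 for Tau95, 0.04 for Bdp1 and -0.03 for Brf1. For Brf1 the region of GAR1, a core H/ACA protein, was the only one 2-fold lower, with -1.94 at 30 min and 0.24 at 0 min. NOP58, a core C/D protein, was 2-fold higher for C160, with 1.92 at 30 min and 0.01 at 0 min, and for Tau95, with 1.39 and 0.27. SMX3, a protein of the Sm ring, was 2-fold higher for C160, with 2.60 at 30 min and 1.57 at 0 min. HIT1, an assembly factor of C/D box particles, is next to a tRNA gene and had 1.16 at 30 min and 0.02 at 0 min for Tau95. In all, 2 of 27 were 2-fold higher for C160 and 2 of 27 for Tau95, and 1 of 26 was 2-fold lower for Brf1, beside 3.36%, 6.87% and 7.10% of all features. The other counts past 2-fold were 0.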

How the data were processed

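The deposited values are 1 log2 value per feature for each of 8 arrays; per the labels, triplicate experiments were combined after scaling to a list of unbound loci. Background correction and spot filters, like the array's build, are not given in these labels or files. The log base was read from value steps on the Brf1 array at 30 min, where base 2 had a strength of 0.93 against 0.17 for base e and base 10; on the other arrays base 2 reached at most 0.21, and on the Bdp1 array at 0 min (0.052, against 0.057 for base 10) and the Tau95 array at 30 min (0.047, against 0.050 for base e) it was not the strongest. Base 2 was taken for all arrays, and each 2-fold limit rests on it.

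Changes are 30 min minus 0 min over features with both values, computed in Python 3.11.15 with pandas 2.3.3 and tested on simulated data; the limit was 2-fold. Strand and neighbours came from the R64 table; with the build unknown, coordinates were left out. Named regions are the 3 highest and lowest per array and change, those with a 2-fold change, those with a mean of 1 or more at 0 min, and the spliceosomal ones. Further regions (SNR44, SNR45, SNR56, SNR57, SNR59, SNR63, SNR64, SNR70 and SNR190) were named after their values were seen. The members and lists were chosen with earlier results of these data known. With 1 array per group, no test of a protein's change was possible; a shared change over the 4 proteins was not tested. The number of arrays limits the precision. The design written beforehand took the values for ratios of strains; its summaries were kept.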

Additional observations from a re-analysis of the deposited data

How the results depend on the processing

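Of 241 values recomputed under the alternatives, 170 stayed within 0.1 (log2) or, for counts, within 1.5 times. Part of the 170 could hardly move, so the total is no measure of robustness. Leaving out features or members does not alter the change of a region that is kept. Centring shifts all values of an array alike, which leaves differences between groups of members nearly fixed. Of all 241, 9 had the other sign, and in 8 of these the reported value was under 0.1 in size. The exception was the members' C160 median at 0 min, -0.24 as reported and 0.027 after quantile normalization. Centring each array on its median gave members' medians of -0.34 for Bdp1 and -0.14 for Tau95 at 30 min, median changes of -0.37 for Brf1 and -0.12 for Tau95, and for the protein genes -0.14 and 0.12. Quantile normalization gave medians of -0.087 for Bdp1 and -0.069 for C160 at 30 min, median changes of -0.12 for Brf1 and -0.18 for Tau95, and for the protein genes 0.13 and 0.016. It also gave 0.63 for C/D minus H/ACA box, 1.34 for regions that end at a tRNA gene minus those with none next, and 0.22 for the median of the 18 members on the 5' side minus that of the 17 on the 3' side. As deposited, these differences were 0.46, 1.54 and 0.35. Features with all 8 values alone gave medians of -0.10 for Bdp1, -0.082 for C160 and 0.18 for Tau95 at 30 min and -0.062 for C160 at 0 min, with 0.60 for C/D minus H/ACA box and 1.31 for the tRNA neighbours. The cause was not tested.

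At 2-fold, 6 of 64 counts moved by over 1.5 times. SNR48 lost its call for Bdp1 under centring and quantile normalization, where 0.726% and 0.255% of all features were 2-fold higher. Under quantile normalization SNR4 and SNR51 lost theirs for Tau95, which left 3 higher, beside 4.72% of all features. The members at 1 or more for Tau95 at 30 min numbered 4 under centring and under quantile normalization, against 8. Those at 1 or more for Brf1 at 0 min numbered 3 without regions next to a Pol III gene, against 5. Within 1.5 times, the 6 lower for Brf1 became 4 under quantile normalization (without SNR47 and SNR68) and 4 without regions next to a Pol III gene. Of all features, 7.14% and 7.10% were lower in these 2 settings. At 1.5-fold, members lower numbered 4, 8, 4 and 1 for Bdp1, Brf1, C160 and Tau95, or 11.1%, 23.5%, 10.8% and 2.63%. Of all features, 7.87%, 18.5%, 8.60% and 8.24% were lower. Members higher numbered 3, 4, 3 and 5, or 8.33%, 11.8%, 8.11% and 13.2%, beside 7.74%, 14.7%, 13.8% and 22.6% of all features. None of 62 recomputed changes of single regions changed sign. Many of them could not: leaving out features or members does not alter the change of a region that is kept. Centring shifts all changes of a protein by 1 small amount. No paired analysis was possible because each group has 1 array and no replicate number pairs arrays; no replicate could be left out for the same reason. A fit of 1 shared rapamycin change with the 4 proteins as blocks was not made, since it would take different proteins for replicates.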
